A study of Mus musculus with 22 samples.

Results

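The genes described here are 9 members of the adrenergic receptor and cyclic nucleotide phosphodiesterase families: the receptors Adrb1, Adrb3 and Adra2a and the phosphodiesterases Pde3a, Pde3b, Pde4b, Pde4d, Pde7a and Pde8a. They were taken by symbol from a table of 23420 genes. Pde7a was chosen by its measured values, namely the difference of its tumor change between diets, so its levels are given as a description and carry no test. All 9 passed the filter on low counts that 14458 genes passed, and tests were made on the other 8. The table held 33 genes of the same families, 9 adrenergic receptor and 24 phosphodiesterase genes with the members included, of which 26 passed the filter.

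RNA was sequenced from inguinal white adipose tissue (IWAT) of adult wildtype female C57Bl/6 mice, 5 of them lean on chow and 6 obese on a high fat diet (HFD), after 16 weeks of diet. Each mouse carried E0771 cells, a breast cancer line that itself comes from a C57Bl/6 mouse, in Matrigel and saline in one inguinal pad (tumor-associated IWAT) and Matrigel with saline but no cells in the opposite pad (control IWAT), and both pads were collected 2 weeks later. There was 1 library per pad, 22 in all, in 4 groups of diet by pad. Every control pad therefore came from a tumor-bearing animal, diet and body weight cannot be told apart, and the tumor-associated tissue was cut free of the sheet of fat that covered the tumor.

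Norepinephrine from sympathetic nerves binds beta adrenergic receptors on adipocytes, which act through the G protein Gs and adenylyl cyclase to raise cyclic AMP. Cyclic AMP activates protein kinase A, which phosphorylates hormone-sensitive lipase and the lipid droplet coat and so starts the breakdown of stored triglyceride. The alpha-2A receptor couples to Gi and opposes the cyclase. Phosphodiesterases end the signal by hydrolysing cyclic AMP, cyclic GMP or both, and in adipocytes insulin slows lipolysis in part through activation of Pde3b.

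Between 5759775 and 8598108 counts per library fell on genes. Levels are given as CPM, counts scaled to the library total by the TMM method, and as CPM per kb of annotated exon where genes are set beside each other. The fat cell marker Adipoq was measured in all groups, at a mean of 1523 CPM in lean control and 700.4 CPM in obese tumor-associated pads. A reference of 5 adipocyte genes had group means of 9.65 and 9.16 log2 CPM in control and tumor-associated pads of lean mice and of 10.03 and 8.43 in those of obese mice. The tumor-associated pads of obese mice 0 and 4 stood apart, with 7.48 and 6.75 on this scale against 8.68 to 9.45 in the other obese tumor-associated pads, so results that rest on them are given with and without both pads of these mice. Proliferation genes summed to 1208 and 1605 CPM in the same pads, against 480.7 to 836.8 CPM in the other obese tumor-associated pads. Which cells these levels came from was not tested.

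Upstream sequence was available from RefSeq (GRCm38.p6) for 5 of the 9 members, Adrb1, Adra2a, Pde4b, Pde4d and Pde8a, as 8 windows of the 250 bases before a RefSeq gene start. They were searched for the cyclic AMP response element, to which CREB binds, as the palindrome TGACGTCA and as its core TGACG, on both strands, each palindrome also holding the core. Cores stood in 4 of the 8 windows and palindromes in 0, while over all 32851 promoter windows of this length 17.8% held the core and 1.55% the palindrome. The Adra2a window, which held a core, lies with all 250 bases in an annotated exon, inside the gene position given below. The 3 windows shown here lie outside annotated exons and were picked as those of a receptor and a phosphodiesterase with a core and as one without it; capitals mark the core. The Adrb1 window is chr19:56721867-56722116 on the plus strand, the Pde8a window chr7:81213015-81213264 on the plus strand, and the Pde4b window chr4:102569810-102570059 on the plus strand, 1 of 4 alternative starts of that gene.
Adrb1: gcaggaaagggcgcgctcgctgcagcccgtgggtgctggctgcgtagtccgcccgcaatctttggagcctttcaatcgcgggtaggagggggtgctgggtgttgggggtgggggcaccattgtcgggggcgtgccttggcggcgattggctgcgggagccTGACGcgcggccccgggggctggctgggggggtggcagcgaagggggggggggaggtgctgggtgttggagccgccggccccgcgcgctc
Pde8a: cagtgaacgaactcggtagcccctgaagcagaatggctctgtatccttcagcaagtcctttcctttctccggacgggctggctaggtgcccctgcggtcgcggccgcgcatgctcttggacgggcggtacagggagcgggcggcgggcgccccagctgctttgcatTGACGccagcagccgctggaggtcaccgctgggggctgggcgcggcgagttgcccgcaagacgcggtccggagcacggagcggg
Pde4b: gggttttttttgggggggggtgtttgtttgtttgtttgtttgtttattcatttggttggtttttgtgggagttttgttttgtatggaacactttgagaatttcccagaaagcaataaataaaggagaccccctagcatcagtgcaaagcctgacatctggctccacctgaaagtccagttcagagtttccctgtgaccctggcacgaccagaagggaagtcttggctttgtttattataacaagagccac
The core began 90 bases before the RefSeq start of Adrb1 and 84 bases before that of Pde8a. These letters were not in the Pde4b window shown. The gene positions given below come from another annotation, GENCODE, and start elsewhere, at chr19:56722199 for Adrb1 and chr7:81213596 for Pde8a. Another start of Pde4b, whose window lies partly in an annotated exon, had the core 34 bases before it. A match describes the sequence and says nothing about binding in these pads.

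In lean mice, 0 of the 8 tested members differed between tumor-associated and control IWAT by edgeR's quasi-likelihood test at an adjusted p under 0.05, beside 3.27% of all genes called higher and 0.913% called lower. The count over all genes moved with single libraries, from 605 to 183 without the tumor-associated pad of lean mouse 2 and to 952 without that of obese mouse 4, and was 1437 with the lean groups fitted alone. At an unadjusted p under 0.05 there was 1 member, Pde3b, and DESeq2 called 0. In obese mice 6 of the 8 were lower in tumor-associated IWAT and 0 higher, beside 27.7% of all genes lower and 26.8% higher. The 6 were Adrb1, Adrb3, Pde3a, Pde3b, Pde4b and Pde4d. Without both pads of mice 0 and 4, 4 of the 8 were called, beside 16.7% of all genes lower and 15.5% higher. The median log2 fold change of the 8 was -0.07 in lean and -1.02 in obese mice, while the median over all genes was 0.01 and -0.02.

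Between the diets, 2 of the 8 members, Adrb3 and Adra2a, were lower in obese than in lean control pads, beside 7.53% of all genes lower and 9.54% higher. In tumor-associated pads 7 of the 8 were lower in obese mice, all but Pde8a, beside 22.4% of all genes lower and 24.7% higher; without mice 0 and 4, 5 were called, beside 18.3% of all genes lower and 17.6% higher. The obese tumor change was lower than the lean tumor change for 1 of the 8, Pde4b, beside 2.34% of all genes lower and 2.58% higher. That last comparison turned on single libraries: over all genes 711 were called, against 1 without the tumor-associated pad of lean mouse 0 or of obese mouse 0 and 3568 without that of obese mouse 1. Without both pads of obese mice 1 and 3 it was called for 5 of the 8 members, Adrb1, Pde3a, Pde3b, Pde4b and Pde4d, beside 17.6% of all genes lower and 16.7% higher. The comparisons share libraries, each group entering more than 1 of them, so their values are set side by side and not counted as independent. In bulk tissue, fewer cells of a type and less RNA per cell cannot be told apart.

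**Figure D1:**
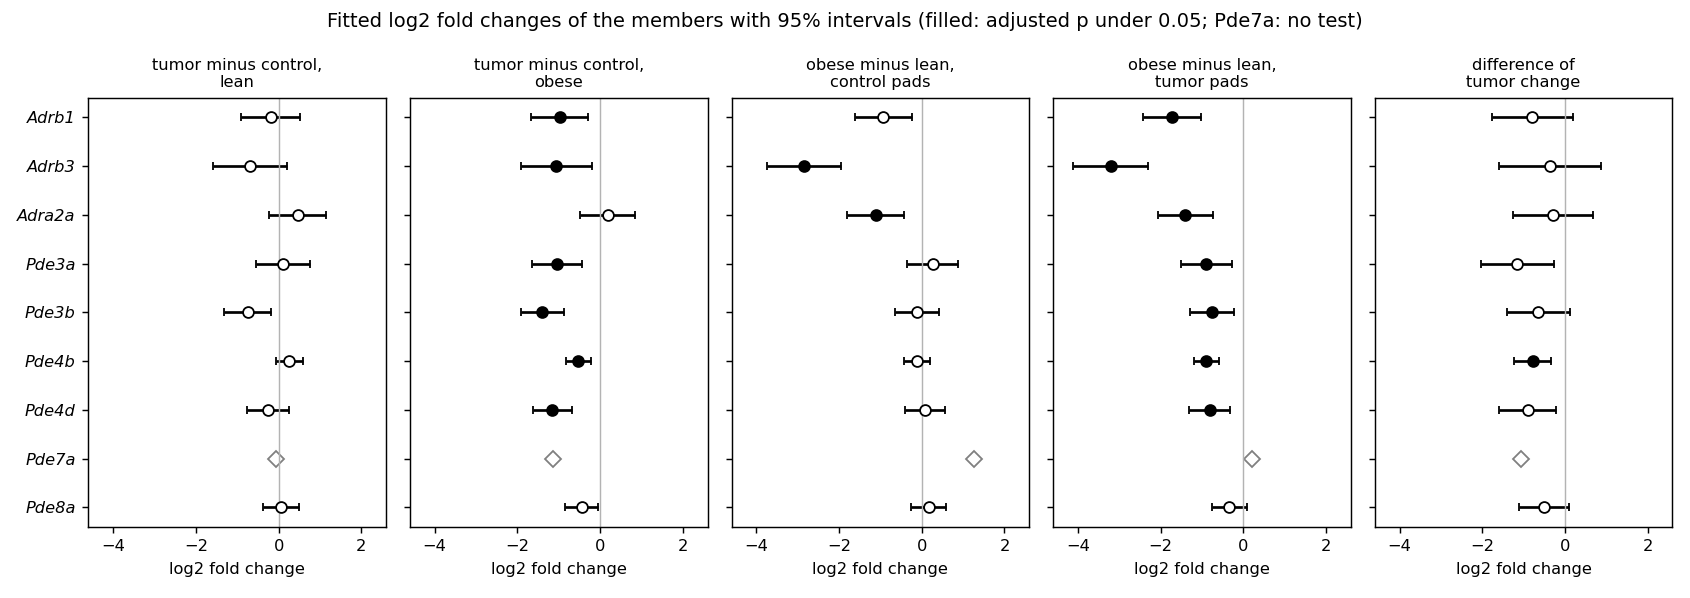
Fitted log2 fold changes (horizontal axis) of the 9 members (rows) in the 5 comparisons (panels), with 95% intervals; filled points passed an adjusted p under 0.05, and Pde7a, chosen by its values, is an open diamond with no interval. Adrb3 lies at -2.85 and -3.21 in the diet comparisons, the farthest from 0 among the members, and Pde4b has the only filled point in the last panel.

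The beta-3 receptor gene Adrb3 (GRCm38 chr8:27225776-27250616, minus strand), the main lipolytic receptor of rodent fat cells, had the largest fold difference between diets among the members. It stood at 174, 222, 216, 213 and 235 CPM in the lean control pads of mice 0, 2, 3, 6 and 9 and at 110, 96.2, 118, 133 and 199 CPM in their tumor-associated pads. In obese mice it ran from 18.9 over a median of 25.1 to 52.3 CPM in control pads and from 1.28 over a median of 15.6 to 27.4 CPM in tumor-associated pads. All obese libraries lay below all lean libraries, whereas within each diet the pads overlapped. In control pads the level was 7.20-fold lower in obese mice (log2 fold change -2.85, standard error 0.46, edgeR adjusted p = 2.75e-04), and in tumor-associated pads 9.27-fold lower (log2 fold change -3.21, standard error 0.47, edgeR adjusted p = 3.65e-05). These calls held in all 22 fits that left out 1 library.

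The tumor change of Adrb3 was smaller and less certain than its difference between diets. It was lower in the tumor-associated pad in 5 of 5 lean and 5 of 6 obese mice. Lean mice had a log2 fold change of -0.69 (standard error 0.45, adjusted p = 0.532 by edgeR). With the lean groups fitted alone, where 1437 of all genes were called, it was -0.71 (edgeR adjusted p = 0.0288). Obese mice had a log2 fold change of -1.06 (standard error 0.44, adjusted p = 0.0483 by edgeR). The obese call rested on a value at the threshold: it held in 6 of 22 fits that left out 1 library, with log2 fold changes between -1.37 and -0.81, the last without the control pad of obese mouse 2 (adjusted p = 0.134). Without both pads of mice 0 and 4 it was -0.71 (adjusted p = 0.0514), and with the obese groups fitted alone -1.06 (adjusted p = 0.152), whereas without both pads of mice 1 and 3 it was -1.90 (adjusted p = 0.00447). In mice 0 and 4 the tumor-associated pads held 1.28 and 2.03 CPM, from 8 and 15 counts. The difference between the diets' tumor changes was -0.36 (95% interval -1.59 to 0.87).

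**Figure D2:**
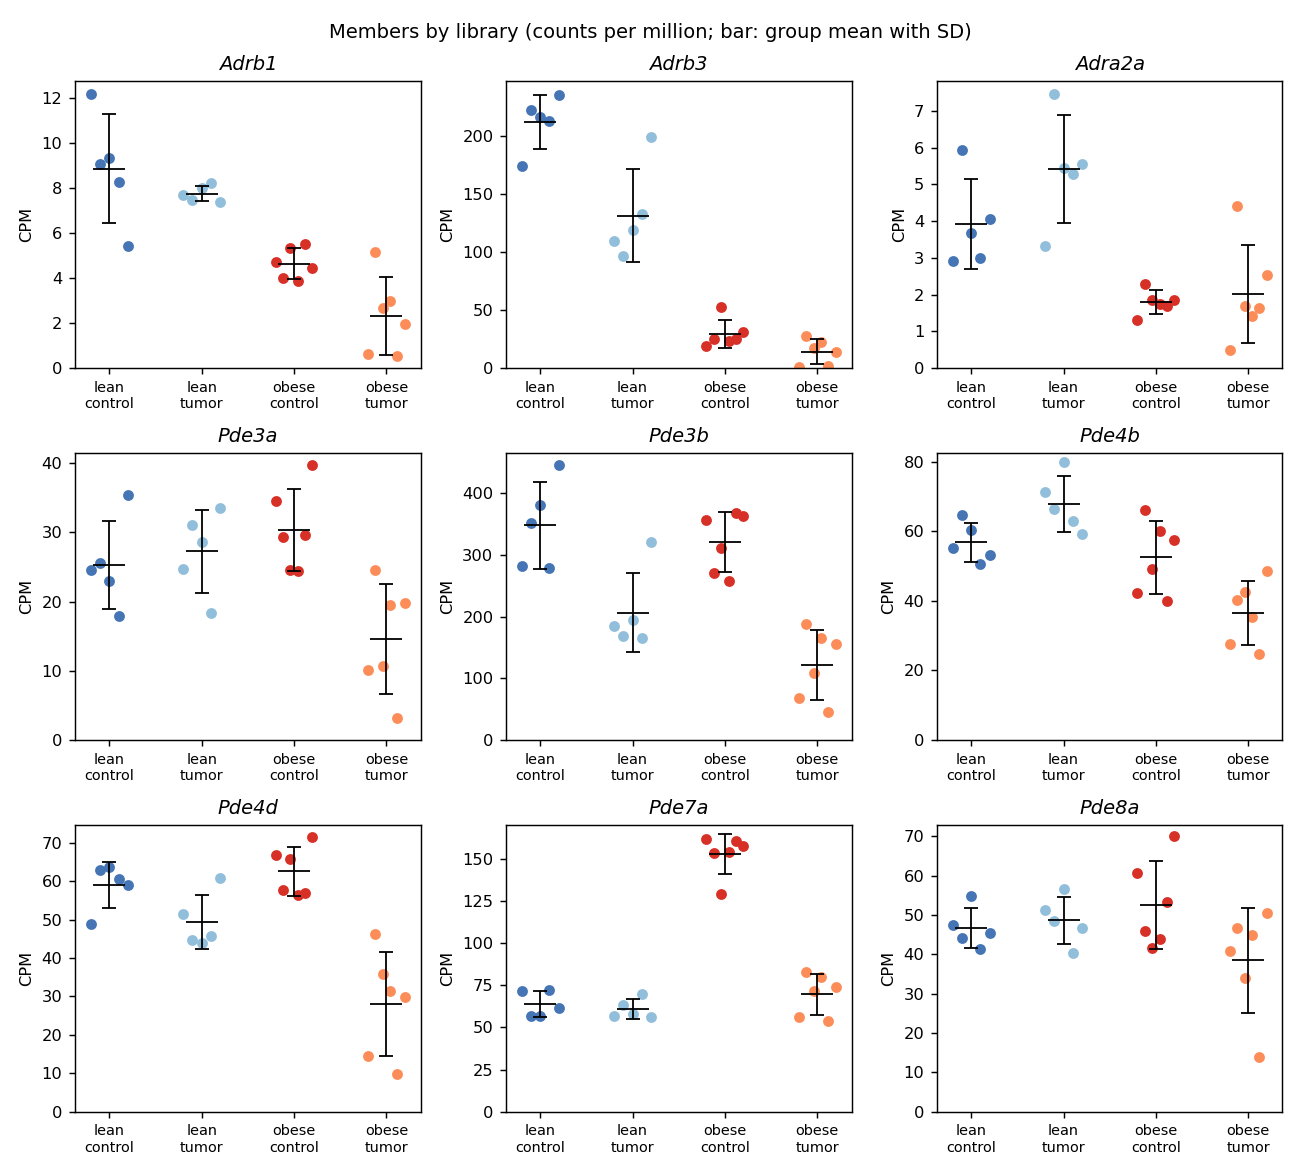
Levels of the 9 members in CPM (vertical axes, each from 0) in every library (points) of the 4 groups, with the group mean and SD (black). Adrb3 sits between 96.2 and 235 CPM in lean and between 1.28 and 52.3 CPM in obese libraries, and Pde7a between 129 and 162 CPM in obese control pads against at most 83.2 CPM elsewhere.

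Markers of brown and beige fat, where Adrb3 signaling drives heat production, moved with the diet as Adrb3 did. Of the 6 such genes tested, 6 were lower in obese control pads, beside 7.53% of all genes lower and 9.54% higher. In obese tumor-associated pads 5 were lower, beside 22.4% of all genes lower and 24.7% higher. The summed level of these markers ran from 51.3 to 216.6 CPM in control and 21.6 to 114.9 CPM in tumor-associated pads of lean mice. In obese mice it ran from 17.96 to 23.2 CPM in control and from 2.8 to 18.1 CPM in tumor-associated pads. The defining gene Ucp1 had a mean of 24.4 CPM in lean control and 0.781 CPM in obese control pads. Their part in the level of Adrb3 was not tested. Gm45470 overlaps Adrb3 on the opposite strand, and as the strand setting of the counting is not given, their reads cannot be told apart.

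Adrb1 (chr19:56722199-56733113, plus strand) encodes the beta-1 receptor, the cardiac type that fat cells also carry. In lean control pads it stood at 12.2, 9.10, 9.34, 8.27 and 5.42 CPM and in lean tumor-associated pads at 7.72, 7.46, 8.01, 8.24 and 7.41 CPM, for mice 0, 2, 3, 6 and 9. Obese levels ran from 3.87 over 4.59 to 5.53 CPM in control pads and from 0.541 over 2.32 to 5.17 CPM in tumor-associated pads. The groups of the 2 diets did not overlap among tumor-associated pads and met only at lean mouse 9 among control pads. It was lower in obese than in lean tumor-associated pads (log2 fold change -1.72, standard error 0.36, edgeR adjusted p = 7.49e-04). In control pads the log2 fold change was -0.93 (standard error 0.35, edgeR adjusted p = 0.0705). That value passed the threshold without both pads of obese mice 0 and 4 (-1.02, adjusted p = 0.00793) and with DESeq2 (-0.95, adjusted p = 0.0212). It also passed with the control groups fitted alone (-0.93, edgeR adjusted p = 0.00605). The same held on leaving out the tumor-associated pad of obese mouse 0, 1 or 4 (adjusted p = 0.0396, 0.031 and 0.0228).

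Between the pads Adrb1 was lower in obese tumor-associated IWAT (log2 fold change -0.98, standard error 0.35, edgeR adjusted p = 0.0229) in 5 of 6 mice, and its lean value was -0.19 (adjusted p = 0.942). The obese fall was largest in mice 4 and 0, with paired changes down to -2.81 on the log2 scale from 4 counts in each of their tumor-associated pads. Without these mice the log2 fold change was -0.47 (adjusted p = 0.181), and with the obese groups fitted alone it was -0.98 (adjusted p = 0.0841), whereas without both pads of mice 1 and 3 it was -1.78 (adjusted p = 4.94e-04). The difference of the tumor changes was -0.79 (95% interval -1.77 to 0.19).

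Adra2a (chr19:54044151-54048982, plus strand), the gene of the alpha-2A receptor that restrains lipolysis, was the lowest of the members per kb, at 0.811 CPM per kb in lean control pads. It stood at 2.90, 5.95, 3.68, 2.99 and 4.07 CPM in lean control and at 3.33, 7.46, 5.43, 5.28 and 5.56 CPM in lean tumor-associated pads, for the same mice in order. Among obese mice it ran from 1.31 over 1.80 to 2.30 CPM in control pads and from 0.481 over 1.65 to 4.40 CPM in tumor-associated pads. The diets did not overlap among control pads. It was lower in obese control pads (log2 fold change -1.11, standard error 0.35, adjusted p = 0.0331 by edgeR) and in obese tumor-associated pads (log2 fold change -1.40, standard error 0.34, edgeR adjusted p = 0.00244).

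No tumor change of Adra2a was detected, although the tumor-associated pad was the higher one in 5 of 5 lean mice (log2 fold change 0.47, standard error 0.35, edgeR adjusted p = 0.627). Its obese value was 0.18 (adjusted p = 0.683) and turned to -0.21 without the tumor-associated pad of mouse 1 (adjusted p = 0.573). With 3 to 48 counts per library its changes carry wide errors. The call in control pads was lost on leaving out the control pad of lean mouse 2 (log2 fold change -0.92, adjusted p = 0.0986), 3 (-1.13, 0.0536) or 9 (-1.10, 0.0549) or of obese mouse 0 (-1.04, 0.0653), 3 (-1.12, 0.0543), 4 (-1.09, 0.0515) or 8 (-1.12, 0.0507).

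Among the other alpha receptor genes that passed the filter, the alpha-1 types Adra1a and Adra1d, whose products couple to Gq and calcium, were lower in obese tumor-associated than control pads. Adra1a went from a mean of 36.1 ± 10.2 to 11.9 ± 7.27 CPM (SD, n = 6; log2 fold change -1.59, standard error 0.35, edgeR adjusted p = 9.71e-04) and was also lower in obese than in lean tumor-associated pads (log2 fold change -1.74). Adra1d went from 7.77 to 3.99 CPM (log2 fold change -0.95, adjusted p = 0.0375), a call lost without mice 0 and 4 (-0.68, adjusted p = 0.194). Adra1b was not called in any comparison. Adra2b and Adra2c did not pass the filter, with at most 8 and 5 counts in a library.

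Pde3b (chr7:114415281-114539251, plus strand), the enzyme through which insulin lowers cyclic AMP in adipocytes, was the most abundant phosphodiesterase per kb in lean control pads, at 38.2 ± 7.74 CPM per kb (SD, n = 5). It stood at 282, 353, 381, 278 and 446 CPM in lean control and at 184, 169, 194, 166 and 321 CPM in lean tumor-associated pads, for mice 0, 2, 3, 6 and 9. In obese mice it ran from 258 over 334 to 368 CPM in control and from 45.5 over 132 to 188 CPM in tumor-associated pads. Every mouse of both diets had less in the tumor-associated pad, and the obese groups did not overlap. The log2 fold change was -1.40 in obese mice (adjusted p = 3.03e-04 by edgeR, standard error 0.27), 2.64-fold lower, and this call held in all 22 fits that left out 1 library.

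**Figure D3:**
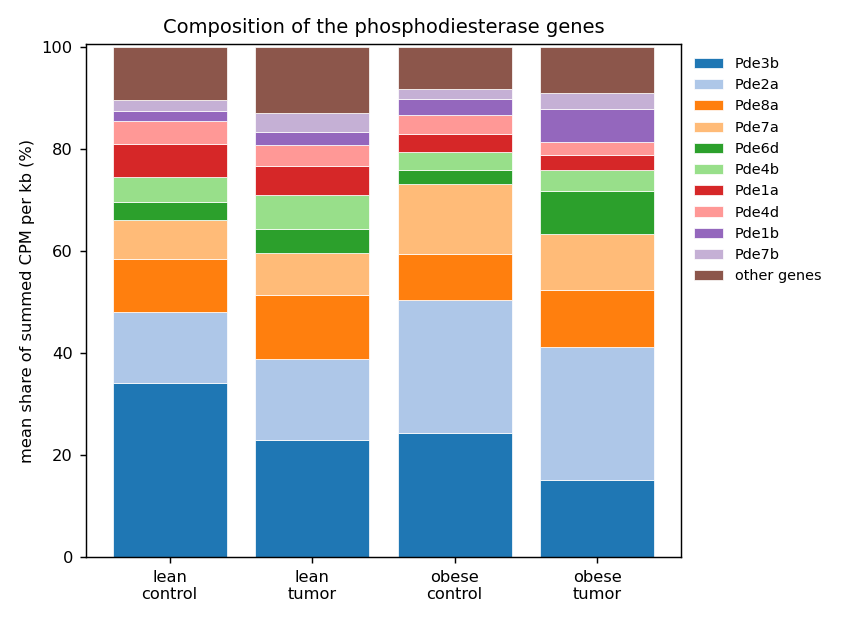
Mean share (vertical axis, percent) of each gene in the summed CPM per kb of the 24 phosphodiesterase genes in the 4 groups (bars); the 10 genes with the largest shares are named. Pde3b goes from 34.2% in lean control to 15.1% in obese tumor-associated pads.

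The lean value of Pde3b was -0.75 (standard error 0.29, edgeR adjusted p = 0.170). It passed the threshold when the lean groups were fitted alone (-0.77, adjusted p = 0.0331), without the tumor-associated pad of obese mouse 4 (-0.77, adjusted p = 0.0497) and without both pads of obese mice 0 and 4 (-0.77, adjusted p = 0.0240). In control pads the log2 fold change between diets was -0.11 (95% interval -0.65 to 0.42). Obese tumor-associated pads were lower than lean ones (log2 fold change -0.76, standard error 0.27, edgeR adjusted p = 0.0271), a call lost without the tumor-associated pad of lean mouse 9 (-0.55, adjusted p = 0.109) or obese mouse 0 (-0.64, adjusted p = 0.0618), without both pads of mice 0 and 4 (-0.42, adjusted p = 0.118) and with the tumor-associated groups fitted alone (-0.77, adjusted p = 0.0927). The difference of the tumor changes was -0.65 (95% interval -1.41 to 0.11).

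Pde3a (chr6:141249269-141507448, plus strand), the related enzyme of heart, vessel and platelet, stood at 24.6, 25.5, 23.0, 17.95 and 35.4 CPM in lean control and at 24.7, 31.1, 28.7, 18.3 and 33.5 CPM in lean tumor-associated pads. Obese levels ran from 24.5 over 29.5 to 39.7 CPM in control and from 3.11 over 15.1 to 24.6 CPM in tumor-associated pads. The lean pads overlapped throughout, and the obese pads met only at their ends. It was lower in the tumor-associated pad of 6 of 6 obese mice (log2 fold change -1.05, standard error 0.31, edgeR adjusted p = 0.00718), and its lean value was 0.11 (adjusted p = 0.980). Obese tumor-associated pads were lower than lean ones (log2 fold change -0.89, standard error 0.32, edgeR adjusted p = 0.0263). That call was lost without the tumor-associated pad of lean mouse 9 (-0.81, adjusted p = 0.0617) or of obese mouse 0 (-0.81, 0.0564) or 2 (-0.82, 0.0533), without both pads of mice 0 and 4 (-0.55, 0.0807) and with the tumor-associated groups fitted alone (-0.90, 0.0927). The difference of the tumor changes of Pde3a was -1.16 (standard error 0.45, edgeR adjusted p = 0.0914), with an adjusted p of 0.0323 without the tumor-associated pad of obese mouse 1.

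The 2 members of the PDE4 family, the cyclic AMP-specific enzymes that rolipram inhibits, are Pde4b and Pde4d. Pde4b (chr4:102087543-102607259, plus strand), also known as the main PDE4 form of immune cells, stood at 55.0, 64.5, 60.2, 50.7 and 53.2 CPM in lean control and at 71.3, 66.2, 79.7, 62.8 and 59.2 CPM in lean tumor-associated pads. With HFD it ran from 39.9 over 53.4 to 65.9 CPM in control and from 24.6 over 37.7 to 48.7 CPM in tumor-associated pads. The tumor-associated pad was higher in 5 of 5 lean mice and lower in 6 of 6 obese mice, and obese tumor-associated pads lay below all lean ones. The fitted log2 fold change of lean mice was 0.26 (standard error 0.16, adjusted p = 0.511 by edgeR). That of obese mice was -0.53 (standard error 0.15, adjusted p = 0.00654 by edgeR).

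The difference between these changes of Pde4b was -0.78 (standard error 0.22, edgeR adjusted p = 0.0485). It was called in 5 of 22 fits that left out 1 library, where its value stayed between -0.88 and -0.69 with adjusted p from 0.0207 to 0.0927, and it was -0.73 without both pads of mice 0 and 4 (adjusted p = 0.0837). Between diets, Pde4b was lower in obese tumor-associated pads (log2 fold change -0.90, standard error 0.16, edgeR adjusted p = 1.76e-04), 1.86-fold, and at -0.11 in control pads (95% interval -0.42 to 0.20). Macrophage markers moved with the tumor in both diets: 9 of 12 were higher in lean and 10 of 12 in obese tumor-associated pads, and their summed level ran from 804.3 to 1650.1 CPM in control and 1757.4 to 3801.7 CPM in tumor-associated pads of lean mice, and from 1238.6 to 1684.6 CPM and 1829.3 to 5091.8 CPM in those of obese mice. Over all genes 3.27% were higher between lean pads and 26.8% between obese pads. Emr1, which marks macrophages, was at 63.9, 155, 98.4 and 291 CPM on average in the control and tumor-associated pads of lean, then of obese mice. T and B cell markers stood apart in the control pads of obese mice 1 and 3, at a summed 475 and 442 CPM against 3.72 to 13.8 CPM in the other obese control pads. These pads also had the highest Pde4b of their group, 65.9 and 60.1 CPM, and their mice the largest falls of Pde4b, -0.71 and -0.77 on the log2 scale. Without both pads of mice 1 and 3 the obese change of Pde4b was -0.41 (edgeR adjusted p = 0.0548) and the difference between diets -0.66 (edgeR adjusted p = 0.0430). The part of these cells in the level of Pde4b was not tested.

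Pde4d (chr13:108449948-109953461, plus strand) stood at 48.9, 63.0, 63.5, 60.5 and 59.0 CPM in lean control and at 51.5, 44.8, 44.0, 45.7 and 60.9 CPM in lean tumor-associated pads. In obese mice it ran from 56.5 over 61.7 to 71.6 CPM in control and from 9.74 over 30.7 to 46.2 CPM in tumor-associated pads, with no overlap between them. It was 2.23-fold lower in obese tumor-associated than control pads (log2 fold change -1.16, standard error 0.24, edgeR adjusted p = 5.95e-04), in 6 of 6 mice and in all 22 fits that left out 1 library. The lean value was -0.26 (adjusted p = 0.786). Obese tumor-associated pads were also lower than lean ones (log2 fold change -0.82, standard error 0.25, edgeR adjusted p = 0.0107), but not when those groups were fitted alone (-0.83, adjusted p = 0.0625). The difference of the tumor changes was -0.90 (standard error 0.35, edgeR adjusted p = 0.0911), with an adjusted p of 0.0233 without the tumor-associated pad of obese mouse 1.

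**Figure D4:**
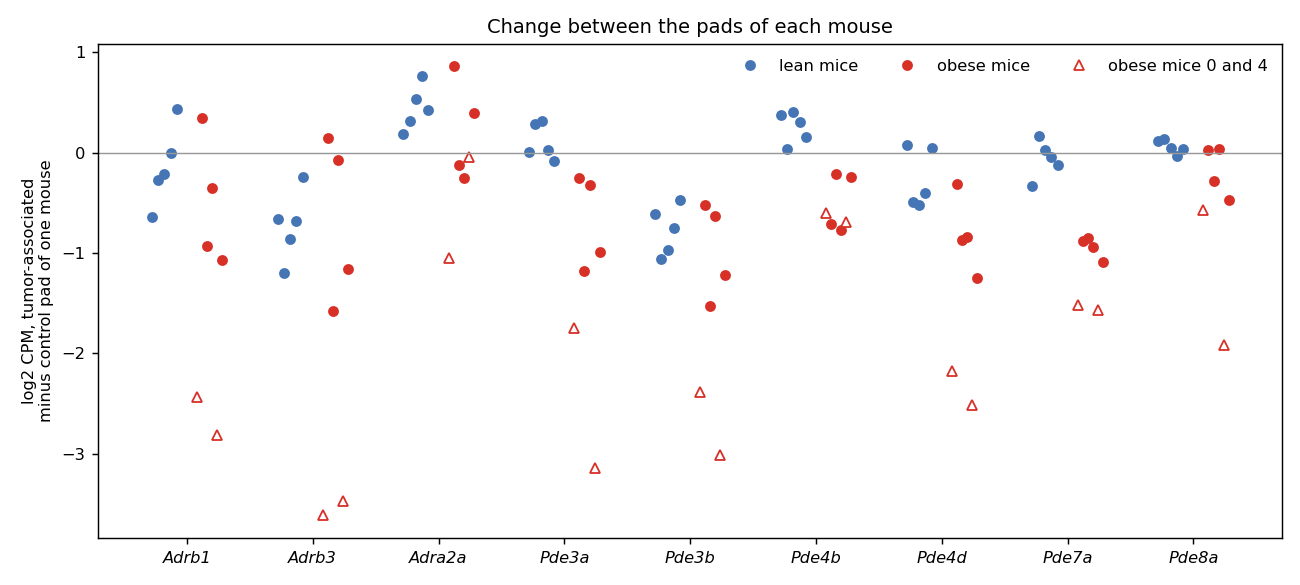
Change in log2 CPM from the control to the tumor-associated pad of each mouse (points; vertical axis) for the 9 members, with obese mice 0 and 4 as open triangles. Pde4b lies above 0 in 5 of 5 lean and below 0 in 6 of 6 obese mice, and Adrb3 reaches -3.61 in the obese mice.

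Pde7a (chr3:19223108-19311322, minus strand) and Pde8a are cyclic AMP-specific enzymes that rolipram does not inhibit. Pde7a stood at 71.5, 56.7, 56.7, 72.3 and 61.4 CPM in lean control and at 56.6, 63.6, 57.7, 69.9 and 56.4 CPM in lean tumor-associated pads, for mice 0, 2, 3, 6 and 9. In obese control pads it ran from 129 over 156 to 162 CPM and in obese tumor-associated pads from 54.1 over 72.7 to 83.2 CPM. The obese control pads lay above every other library, and the other 3 groups overlapped. The fitted log2 fold changes were -0.07 between lean pads, -1.13 between obese pads, 1.26 between control pads and 0.20 between tumor-associated pads of the diets, and the paired change was negative in 6 of 6 obese mice, between -1.57 and -0.85. As it was picked for this pattern, no test is given. Without both pads of mice 0 and 4 the difference of its tumor changes moved from -1.06 to -0.87. Gm16093 overlaps Pde7a on the opposite strand, and Pde3a, Pde4d and Pde8a also overlap small annotated genes.

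Pde8a (chr7:81213596-81334533, plus strand), an enzyme with a high affinity for cyclic AMP, was called in no comparison. It stood at 47.4, 44.3, 54.8, 41.4 and 45.4 CPM in lean control and at 51.2, 48.5, 56.5, 40.4 and 46.6 CPM in lean tumor-associated pads. Among obese mice it ran from 41.7 over 49.6 to 70.2 CPM in control and from 13.9 over 42.8 to 50.5 CPM in tumor-associated pads, and all 4 groups overlapped. Its obese tumor change was -0.45 (standard error 0.21, edgeR adjusted p = 0.0693), which passed the threshold with the mouse as a replicate block (-0.51, adjusted p = 0.0473) and without the tumor-associated pad of obese mouse 1 (-0.52, 0.0467) or 8 (-0.54, 0.0376), and without both pads of mice 1 and 3 (-0.72, 0.0237).

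Of all 25 receptor and phosphodiesterase genes tested, Pde7a left out, 16 were lower and 2 higher in obese tumor-associated than control pads, and in lean mice 1 was higher, Pde7b. Beside the obese counts stand the 27.7% of all genes that were lower and the 26.8% that were higher. In lean mice 3.27% of all genes were higher and 0.913% lower, so the lean count lay near that share. Without mice 0 and 4, 12 were called in obese mice, the lost calls being those of Adrb1, Adrb3, Adra1d, Pde5a, Pde10a and Pde11a. The largest obese fall was that of Pde1c, a calcium-calmodulin-regulated enzyme, from 3.21 ± 1.86 to 0.702 ± 0.370 CPM (SD, n = 6; log2 fold change -2.16, standard error 0.45, edgeR adjusted p = 6.41e-04). Further falls were those of Pde4c (log2 fold change -1.59), the cyclic GMP-specific Pde9a (-1.34), Pde11a (-1.27), Pde1a (-0.97), the dual-specificity Pde10a (-0.79), the cyclic GMP-stimulated Pde2a (-0.79) and the cyclic GMP-specific Pde5a (-0.74). The rises were those of Pde4a (log2 fold change 0.85, standard error 0.19, edgeR adjusted p = 0.00110) and of Pde6d (0.65, standard error 0.13, adjusted p = 4.34e-04), whose product carries prenylated proteins and hydrolyses no nucleotide. In lean mice Pde7b rose from 27.7 ± 1.39 to 43.9 ± 7.91 CPM (SD, n = 5; log2 fold change 0.67, standard error 0.18, edgeR adjusted p = 0.0441). This call of Pde7b was lost with the mouse as a replicate block (0.65, adjusted p = 0.124), with upper-quartile normalization (0.63, adjusted p = 0.0721) and with no filter on low counts (0.65, adjusted p = 0.0685), and it held in 7 of 22 fits that left out 1 library. Pde8b was not called in any comparison, and Pde6a, Pde6b, Pde6c, Pde6g and Pde6h, the genes of the photoreceptor enzyme, did not pass the filter.

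Between diets, 3 of these 25 genes were higher and 2 lower in obese control pads, and 3 higher and 13 lower in obese tumor-associated pads. Over all genes the shares were 9.54% higher and 7.53% lower in control pads, near those of the family, and 24.7% and 22.4% in tumor-associated pads. Pde2a stood out among the rises, at 93.8 ± 8.60 CPM (SD, n = 5) in control pads of lean mice against 234 ± 38.1 CPM (SD, n = 6) with HFD (log2 fold change 1.32, standard error 0.16, edgeR adjusted p = 2.05e-05), without overlap. Pde1b (log2 fold change 1.01, adjusted p = 0.00114) and Pde10a (0.88, adjusted p = 0.0291) were higher too. The 3 higher in obese tumor-associated pads were Pde1b (log2 fold change 1.07, adjusted p = 1.83e-04), Pde2a (0.52, adjusted p = 0.0104) and Pde6d (0.53, adjusted p = 0.00344). The difference of the tumor changes was called for Pde1c (-2.32, adjusted p = 0.0474), Pde2a (-0.80, adjusted p = 0.0472) and Pde4b, for 6 genes by DESeq2, for 0 by edgeR without mice 0 and 4 and for 15 without mice 1 and 3. With the mouse as a replicate block the call of Pde2a was lost (-0.82, adjusted p = 0.0718), while Pde1c and Pde4b stayed under the threshold (adjusted p = 0.0425 and 0.0238).

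Among the phosphodiesterases as a set, the summed level was 111 ± 10.1 and 96.8 ± 9.70 CPM per kb (SD, n = 5) in control and tumor-associated pads of lean mice, and 145 ± 15.9 and 83.9 ± 20.9 CPM per kb (SD, n = 6) in those of obese mice. Pde3b held 34.2%, 23.1%, 24.3% and 15.1% of it in that order, Pde2a 13.8%, 15.8%, 26.1% and 26.0%, and Pde7a 7.53%, 8.22%, 13.7% and 10.95%. Pde2a thus led in obese and Pde3b in lean pads on this scale, as a description without a test.

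Adipocyte genes moved with several members. Between obese pads 27.7% of all genes were lower and 26.8% higher. Of 14 adipocyte markers, 13 were lower and 0 higher in obese tumor-associated than control pads, and 0 were called in lean mice. Their summed level was nevertheless lower in the tumor-associated pad of 5 of 5 lean mice, at 0.583 to 0.903 of that in the control pad, and of 6 of 6 obese mice, at 0.0829 to 0.826 of it. It ran from 23296.6 to 30546.8 CPM in control and 14175.6 to 25494.8 CPM in tumor-associated pads of lean mice, and from 24792.5 to 43562.6 CPM and 3089.6 to 20669.5 CPM in those of obese mice, lowest in the tumor-associated pad of mouse 4. Across the 22 libraries, deviations from the group means in log2 CPM correlated with those of the 5-gene adipocyte reference at r = 0.94 for Pde3b, 0.92 for Pde4d, 0.88 for Pde3a, 0.85 for Adrb3, 0.83 for Adrb1 and 0.79 for Pde8a, and at 0.62 for Pde7a, 0.49 for Pde4b and 0.46 for Adra2a. The libraries share their normalization, and obese tumor-associated pads 0 and 4 carry much of the spread, so these are descriptions without p.

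Set against that reference, the members parted. The log2 ratio of Adrb3 to the reference changed by -0.02 ± 0.51 (SD, n = 6) between the pads of obese mice and that of Pde3b by 0.06 ± 0.33. The ratios of Pde4d, Pde3a and Adrb1 changed by 0.28 ± 0.49, 0.33 ± 0.34 and 0.40 ± 0.21, that of Pde7a by 0.46 ± 1.00, and those of Pde4b, Pde8a and Adra2a by 1.07 ± 1.30, 1.07 ± 0.70 and 1.57 ± 1.08 (SD, n = 6). The change was upward in 6 of 6 mice for Adrb1, Pde8a and Adra2a, in 5 for Pde3a and in 4 for Pde4b, Pde4d and Pde7a. The means of Pde7a, Pde4b and Pde4d leaned on mice 0 and 4. There the ratio of Pde7a changed by 1.17 and 1.99, against -0.69, 0.48, -0.39 and 0.22 in mice 1, 2, 3 and 8. That of Pde4b changed by 2.08 and 2.87 in mice 0 and 4, against -0.52, 1.12, -0.22 and 1.07. For Pde4d these values were 0.52 and 1.05, against -0.13, 0.46, -0.29 and 0.06. Between diets, the ratio of Adrb3 was lower in obese mice by a difference of -3.30 in control and -3.07 in tumor-associated pads, and that of Adrb1 by -1.24 and -1.19, without overlap between groups in any of the 4. In control pads the ratios of Adra2a and Pde3b also differed without overlap, by -1.37 and -0.49. In tumor-associated pads they differed by -0.73 and -0.15, with overlap. Those of Pde3a, Pde4b, Pde4d and Pde8a overlapped between diets in both pads. Pde7a was picked by its values, so its ratio is only described. It was 0.88 higher in obese control and 0.92 higher in obese tumor-associated pads.

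**Figure D5:**
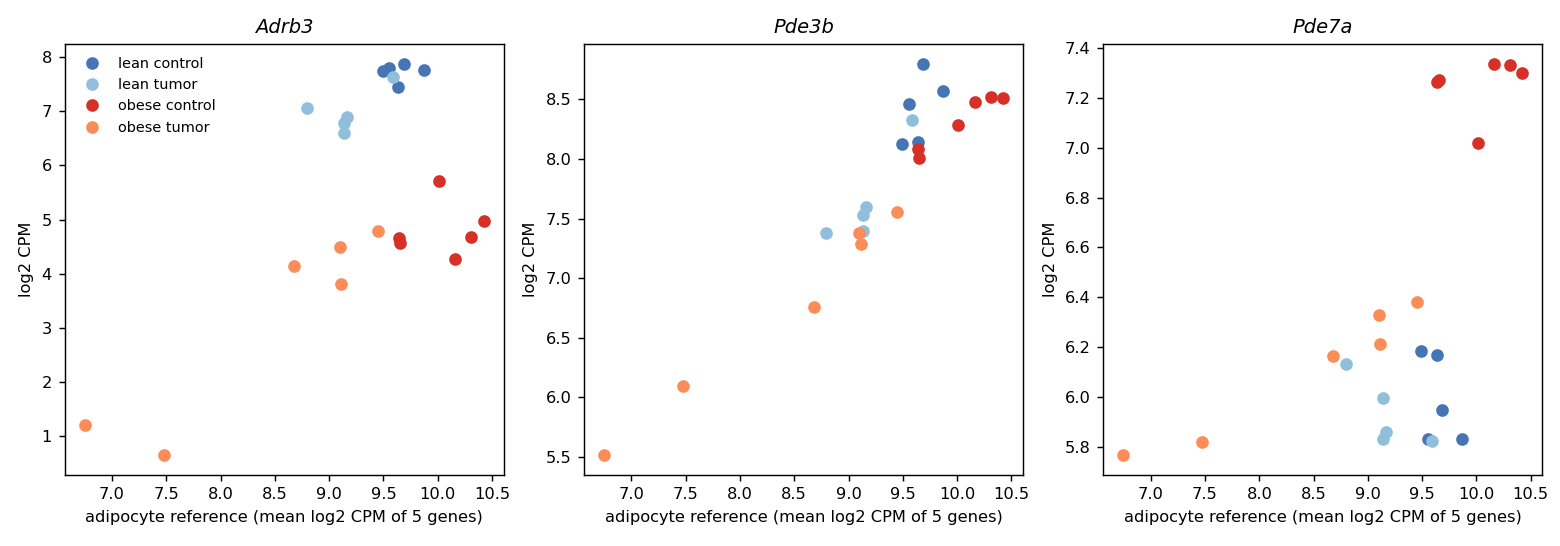
Log2 CPM of Adrb3, Pde3b and Pde7a (vertical axes) against the mean log2 CPM of 5 adipocyte reference genes (horizontal axes) in all 22 libraries, colored by group. For Adrb3 the obese libraries lie below the lean ones at like reference levels, with differences of -3.30 and -3.07 in the log2 ratio.

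The other genes of the pathway were counted by list between the pads, and the obese counts are to be read beside the 27.7% of all genes lower and 26.8% higher. Of 6 lipolysis genes, 6 were lower in obese tumor-associated than control pads and 0 called in lean mice: Lipe, hormone-sensitive lipase, went from 948 ± 196 to 387 ± 216 CPM (SD, n = 6; log2 fold change -1.29, standard error 0.32, edgeR adjusted p = 0.00214) and Mgll, monoglyceride lipase, fell with a log2 fold change of -1.34 (adjusted p = 0.00107). Of 11 protein kinase A and Epac genes, 6 were lower and 2 higher. The regulatory subunit Prkar2b, the form typical of fat, had a log2 fold change of -1.58 (adjusted p = 3.35e-04) and the kinase inhibitor Pkia one of -1.48, while the catalytic subunit Prkacb was 0.34 and the regulatory subunit Prkar2a 0.47 higher on the log2 scale, the call of Prkacb being lost without mice 0 and 4 (0.19, adjusted p = 0.131). Of 9 adenylyl cyclases, 5 were lower and 0 higher, among them Adcy6 (log2 fold change -1.23). Of the 7 G protein alpha subunits, 3 were lower and 3 higher, with the inhibitory subunits apart from each other: Gnai1 at -1.24, Gnai3 at 0.57 and Gnai2 at 0.30.

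Other receptors that act on the cyclase moved both ways. Of 11 such genes tested, 7 were lower and 1 higher in obese tumor-associated pads. Ptger3, a Gi-coupled prostaglandin E receptor, went from 61.8 ± 21.2 to 15.9 ± 8.80 CPM (SD, n = 6; log2 fold change -1.95), and Tshr, the thyrotropin receptor, from 126 ± 25.6 to 44.4 ± 25.0 CPM (SD, n = 6; edgeR adjusted p = 5.06e-04). Adora2b, a Gs-coupled adenosine receptor, rose in both diets, from 2.08 ± 0.544 to 4.40 ± 0.447 CPM (SD, n = 5) in lean mice (log2 fold change 1.07, standard error 0.27, edgeR adjusted p = 0.0288) and from 1.55 ± 0.570 to 6.78 ± 1.42 CPM (SD, n = 6) in obese mice (log2 fold change 2.13). Of 6 receptor kinase and arrestin genes 2 were lower and 1, Arrb2, higher; of 10 anchoring protein genes 5 were lower; of 7 CREB family genes 1 was lower and 1 higher; of 8 cyclic AMP-induced genes 2 were lower, among them Ppargc1a (log2 fold change -1.52); and of 7 catecholamine genes 2 were lower. The counts of lower CREB family, cyclic AMP-induced and catecholamine genes lay near or under the share over all genes. In lean mice these lists held 3 calls, Gnai2 and Adora2b higher and Akap1 lower. Between lean pads 3.27% of all genes were higher and 0.913% lower, so so few calls are not read as a result about the pathway. With the mouse as a replicate block Gnai2 stayed called (adjusted p = 0.0250), and Adora2b (1.10, adjusted p = 0.0518) and Akap1 (-0.50, adjusted p = 0.0570) did not.

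For each member, the 3 genes whose deviations from the group means were most like its own over the 22 libraries were named. They were Ces1d, Ldhb and Gpld1 for Adrb3 (r = 0.95, 0.93 and 0.93), Cgn, Gsta3 and Cd164l2 for Adrb1 (0.93, 0.93 and 0.92) and Nap1l3, 0610009L18Rik and Myom3 for Adra2a (0.73, 0.72 and 0.71). For the phosphodiesterases they were Ccpg1, Dapk1 and C1qtnf1 for Pde3a (0.97, 0.96 and 0.96), Aldh6a1, Agmo and Cidec for Pde3b (each 0.96), Wdr86, Map3k1 and AU021092 for Pde4b (0.82, 0.80 and 0.79), Amy1, Fmo1 and Lgals12 for Pde4d (each 0.96), Marc1, Cyp2s1 and Orm1 for Pde7a (0.86, 0.83 and 0.83) and Dnajb13, Sod3 and Adc for Pde8a (0.95 each). Cidec and Lgals12 are lipid droplet genes of adipocytes. Among the members, deviations of Adrb3 and Pde4d were most alike (r = 0.90) and those of Adra2a and Pde8a least (r = 0.07).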

How the data were processed

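Total RNA depleted of ribosomal RNA was sequenced from 22 libraries of tumor-associated and control IWAT. The authors filtered and trimmed reads, mapped them to mm10 with STAR 2.4.0f, used HTSeq for counting and deposited the raw counts of each gene, not normalized; the strand setting and annotation are not given in the sources used here. Lines that name no gene (5) were left out; reads on no feature made up 38.5% to 48.8% of a library. Within a group, the closest libraries differed by a chi-square of 5.95 per degree of freedom, so none were copies.

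Counts were fitted with edgeR 4.0.16 under R 4.3.3 (TMM, quasi-likelihood test, default filter by group, Benjamini-Hochberg adjustment over all 14458 genes tested, threshold 0.05), with all 22 libraries as 4 groups and no block. Log2 CPM use a prior count of 2. On simulated counts with 200 genes changed by 1.5 on the log2 scale, edgeR recovered 162 with 5 false calls for tumor-associated against control IWAT of obese mice. For the difference of the tumor changes it recovered 133 with 7 false calls. The simulated libraries were drawn independently, without pairs of pads, and fewer genes changed than were called between obese pads. These figures therefore do not bear on the pairing. Both pads come from one mouse, so the mouse pairs the libraries: deviations from the group means correlated between pads by 0.508 (median of the lean mice; 5 of 5 above 0.1) and 0.168 (median of the obese mice; 4 of 6 above 0.1). Alternatives were DESeq2 1.42.0, upper-quartile normalization, other filters (none, or at least 10 counts in every library), the compared groups alone, the mouse as a replicate block and each library left out; leaving out both pads of obese mice 0 and 4, or of 1 and 3, was chosen after seeing the data. The adipocyte reference was also built from 14 markers and with a prior count of 0.5.

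The members and the gene lists were chosen with earlier results of these data known. Named are all members, every other receptor and phosphodiesterase that passed the filter (1 gene, counted with its family, is not reported here), up to 2 called genes with the largest rise and fall per pathway list and tumor comparison (not all printed), the 3 most alike genes per member and the defining markers. Further lists were neutrophil, T and B cell, fibroblast, endothelium, smooth muscle and pericyte, mammary epithelium, skeletal muscle, nerve, proliferation and germline genes. Positions and exon lengths come from GENCODE M21 (GRCm38) and promoters from RefSeq.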

Additional observations from a re-analysis of the deposited data

Results flagged for a closer look

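A library far from the others of its group was found in 3 of 32 combinations of tested member and group, where chance gives about 1 in 20. Pde3b in lean tumor-associated pads was highest in mouse 9, at 321 CPM, with a gap to the next library of 0.763 of the range. Pde4d in lean control pads was lowest in mouse 0, at 48.9 CPM (gap 0.716). Pde8a in obese tumor-associated pads was lowest in mouse 4, at 13.9 CPM (gap 0.693).

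The tumor change of Pde4b differed between diets by -0.78 on the log2 scale in the fit. As the difference of the mean paired changes it was -0.79, with every lean mouse moving up and every obese mouse moving down, which was not tested over mice. Set against the adipocyte reference, the diets did not part in this way. There the mean paired change of Pde4b was 0.74 in lean mice, upward in 5 of 5. In obese mice it was 1.07, upward in 4 of 6 and largest in mice 0 and 4.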

How the results depend on the processing

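Directions of the members' log2 fold changes turned in 3 cases: Pde4b in control pads, from -0.11 to 0.018, without both pads of obese mice 0 and 4; Pde3b in control pads, from -0.11 to 0.013, without both pads of obese mice 1 and 3; and Adra2a between obese pads, which was -0.096 without mice 1 and 3 and ranged from -0.21 to 0.36 on leaving out 1 library, the lowest without the tumor-associated pad of mouse 1.

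Counts of called members, of called receptor and phosphodiesterase genes (called family genes here) and of called genes of the other pathway lists moved by over 1.5 times as follows. Between lean pads, the members went from 0 to 2 with the groups compared alone and to 1 without both pads of obese mice 0 and 4. The family genes went from 1 to 0 with upper-quartile normalization, with no filter on low counts and with the mouse as a replicate block, to 5 with the groups alone and to 2 without mice 0 and 4. The pathway genes went from 3 to 1 with no filter, with at least 10 counts in every library and with the replicate block, to 21 with the groups alone and to 11 without mice 0 and 4. Between obese pads, the family genes went from 18 to 11 with at least 10 counts in every library, which tests fewer genes, and to 10 with the groups alone. In control pads, the members went from 2 to 0 and the family genes from 5 to 3 with at least 10 counts, and the family genes to 11 with the groups alone and 9 without mice 0 and 4. In tumor-associated pads, the members went from 7 to 4 with at least 10 counts and with the groups alone. For the difference of tumor changes, the members and family genes went from 1 and 3 to 0 and the pathway genes from 2 to 0 with no filter and without mice 0 and 4, the family genes to 6 and the pathway genes to 12 with DESeq2, and the pathway genes to 4 with at least 10 counts, while without both pads of obese mice 1 and 3 the members went to 5, the family genes to 15 and the pathway genes to 33. Other than for the filters and smaller groups, the cause was not tested.

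The paired fit, with the mouse as a replicate block, otherwise left these counts within 1.5 times, with 7 members called between obese pads. Without 1 library, called members ran from 0 to 1 between lean pads, 5 to 7 between obese pads, 1 to 3 in control pads, 5 to 7 in tumor-associated pads and 0 to 3 for the difference; family genes from 0 to 2, 15 to 19, 3 to 9, 13 to 19 and 0 to 9; and pathway genes from 0 to 3, 40 to 52, 10 to 26, 29 to 41 and 0 to 19. Of all genes, upper-quartile normalization called 382 higher and 199 lower between lean pads, against 473 and 132, and 1068 and 1446 in control pads, against 1380 and 1088. With 3 to 48 counts per library, Adra2a is the member most limited by depth.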

Other observations

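The lists of other cell types gave the following counts between the pads of obese mice, beside 27.7% of all genes lower and 26.8% higher. Endothelial markers were lower in 6 of 8, smooth muscle and pericyte markers in 3 of 7, nerve and Schwann cell markers in 3 of 5 and mammary epithelial markers in 8 of 9, with 0 higher in these 4 lists, whereas fibroblast markers were higher in 4 and lower in 2 of 9. Proliferation genes were higher in 6 of 6. The germline and embryonic genes were higher in 10 of 10, but this list was taken from an earlier look at these data. Its counts are therefore a description and not a test. In lean mice, fibroblast markers were higher in 4 of 9 and neutrophil markers in 1 of 2 tested of 6 listed. The endothelial, smooth muscle, mammary, nerve and proliferation lists held 0 calls by edgeR there. The germline list also held 0, with summed levels of at most 9.1 CPM in lean pads, and this is not read as a contrast between diets. Between lean pads 3.27% of all genes were higher and 0.913% lower. T and B cell markers had 0 calls in either diet between pads, with summed levels that reached 475 and 442 CPM in the control pads of obese mice 1 and 3 and 115 CPM in the tumor-associated pad of mouse 3, against at most 65.4 CPM elsewhere. Of 7 skeletal muscle markers listed, only 3 passed the filter on low counts. All 3 were higher in obese than in lean control pads, beside 9.54% of all genes higher. The 7 summed to 2.97 to 9.03 CPM in lean control pads and to 13.9 to 2485.6 CPM in obese ones, highest in mouse 1. The filter used these same libraries, so 3 of 3 is given as a description and not as a test. Of the same 3, 1 was lower in obese tumor-associated than control pads.

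Summed levels of the germline and embryonic list ran from 0.3 to 2.5 CPM in lean control, 0.6 to 9.1 in lean tumor-associated, 6.0 to 85.7 in obese control and 40.1 to 999.7 CPM in obese tumor-associated pads, the last in mouse 4, which also had the lowest adipocyte sum. Pecam1, the endothelial gene, had a mean of 358 CPM in obese control and 215 CPM in obese tumor-associated pads, and Pdgfra, the fibroblast gene, 254 and 247 CPM. Myh11, a smooth muscle gene, had 257 and 121 CPM, Krt8, an epithelial gene, 150 and 135 CPM, Cd3e, a T cell gene, 5.64 and 2.16 CPM, and Acta1, a skeletal muscle gene, 80.2 and 14.2 CPM. Their part in the levels of the receptors and phosphodiesterases was not tested.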
